A study of Mus musculus with 32 samples.

Results

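The response of cartilage cells to interleukin-1β (IL-1β) was followed in 8 of the 32 RNA-sequencing libraries of the study, which were all those of the Ldha f/f or Nampt f/f lines that received a control adenovirus without Cre. They were chosen by their labels, 4 of them GFP libraries without cytokine and 4 GFP + IL-1β libraries, with 2 of each treatment in each line. The whole study covered 16 conditions in wild-type chondrocytes and in 3 floxed lines, for Ldha, Nampt and Nfkbiz, with or without IL-1β and with or without loss or inhibition of a gene product. The cells were primary chondrocytes, not passaged, from newborn C57BL/6 mice, sternal by their labels although the study's methods also name ribs as a source, and were kept in medium with 10% serum at normal oxygen. In the Ldha f/f cells the gene of lactate dehydrogenase A, the enzyme that turns pyruvate into lactate, is flanked by loxP sites, and in the Nampt f/f cells the gene of nicotinamide phosphoribosyltransferase, the first enzyme of the salvage route to NAD, is. The cells of all 8 libraries received adenovirus coding for enhanced green fluorescent protein (eGFP) at 10 infectious particles per cell, and those of the IL-1β libraries then received 10 ng/mL of the cytokine for 24 h. No Cre was given, so both lines carried intact floxed alleles, and virus and eGFP were shared by the libraries with and without IL-1β. The labels name neither animals nor separate cultures, so p-values measure the spread between these libraries, which may be partly technical.

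IL-1β binds a receptor on the chondrocyte that recruits MyD88 and the IRAK kinases and through them activates NF-κB and the MAP kinases. Chondrocytes are the resident cells of cartilage and make its matrix of type II collagen and aggrecan, and the cytokine is widely used to model the catabolic state of arthritic joints. Known parts of that state are matrix metalloproteinases, nitric oxide, prostaglandin E2, chemokines and a fall in matrix synthesis.

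The 4 GFP libraries held 19860937 to 39959888 counts and the 4 IL-1β libraries 15830658 to 36421810, and the spread between libraries beyond counting was 6.81% as a biological coefficient of variation. Genes with over 1 CPM (counts scaled to a common library total) numbered 13725 to 13924 without and 14146 to 14607 with IL-1β, and mitochondrially encoded genes held 1.558% to 1.925% and 1.601% to 1.865% of the counts. The noncoding gene Gm26917 alone held 6.698% to 8.261% without and 8.493% to 9.361% with IL-1β. All 10 chondrocyte markers were detected, and their summed level was 63559 to 65655 CPM in the GFP libraries and 23867 to 24759.6 CPM with IL-1β. The title styles of the labels place the 2 libraries of each of these conditions in different sets, here called set 1 and set 2. Coordinates are those of the deposited files, build GRCm38. Values below are CPM on the scale of TMM-normalized libraries, and the 4 values of a group follow the order Ldha f/f set 1, Ldha f/f set 2, Nampt f/f set 1, Nampt f/f set 2. Means are given ± SD with n = 4, and fold changes are on the log2 scale, IL-1β against GFP, with standard error (SE) and adjusted p. Both come from the quasi-likelihood test of edgeR with line and library set as covariates.

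Changes were many and mostly small. Of 14568 genes tested, 7925 (54.4%) passed an adjusted p of 0.05, with 3860 (26.5%) higher and 4065 (27.9%) lower with IL-1β, and the median over all genes was -0.01. Counts of gene lists below are to be read beside these shares. With all 32 libraries in one model 4526 genes were called. The genes called higher had a median log2 fold change of 0.51 and those called lower -0.40. By a rule of at least 2-fold, added after seeing the data, 937 genes (6.43%) were higher and 522 (3.58%) lower, and 278 of the former and 91 of the latter passed 4-fold. A 32-fold rise was reached by 30 genes and a fall of that size by no gene. For 6020 genes (41.3%) all 4 libraries of one group lay above all 4 of the other. The plot of fold change against level shows that the rises reached further than the falls.

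**Figure D1:**
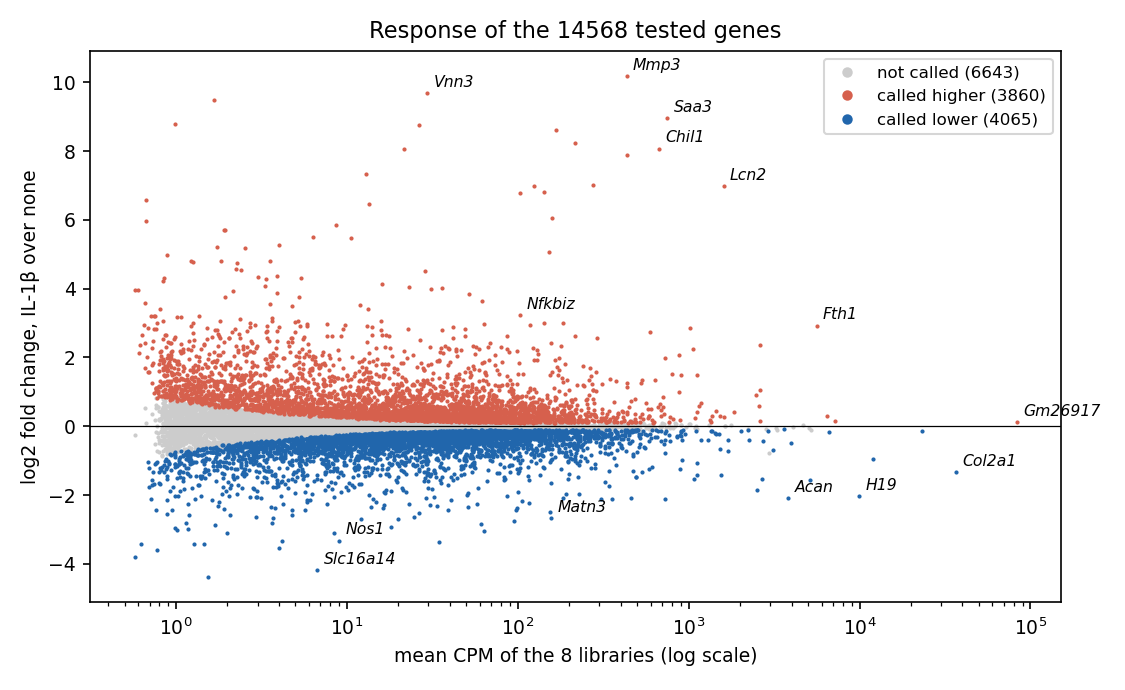
Log2 fold change with IL-1β (y axis) against the mean level of the gene over the 8 libraries (x axis, CPM, log scale), 1 point per tested gene, coloured by call and with named genes labelled. The highest labelled points are Mmp3 at 10.19 and Vnn3 at 9.69, whereas Col2a1, among the highest genes by CPM, had a log2 fold change of -1.34.

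The floxed genes themselves were checked first. Ldha (ENSMUSG00000063229, chromosome 7, 46841475 to 46855627) stood at 916, 867, 956 and 911 CPM without and 1528, 1544, 1404 and 1328 CPM with the cytokine, a log2 fold change of 0.67 (SE 0.05, adjusted p = 7.95e-12). Nampt (ENSMUSG00000020572, chromosome 12, 32820335 to 32853369) stood at 59.6, 59.7, 58.9 and 54.3 CPM and 83.6, 75.4, 67.8 and 69.7 CPM, a log2 fold change of 0.35 (SE 0.05, adjusted p = 3.68e-06). Every IL-1β library was above every GFP library for both genes. In a model of all 32 libraries, which includes libraries whose labels run against their values, the adjusted p was 0.0888 for Ldha and 0.0718 for Nampt.

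The largest rise was in a matrix-degrading enzyme. Mmp3 (ENSMUSG00000043613, chromosome 9, 7445822 to 7455972), which encodes stromelysin-1, stood at 0.829, 1.21, 0.352 and 0.733 CPM in the GFP libraries and at 856, 863, 885 and 865 CPM with IL-1β. Its group mean was 0.781 without and 867 CPM with the cytokine, a log2 fold change of 10.19 (SE 0.11, adjusted p = 5.91e-29). The 4 IL-1β libraries lay within a narrow band, while the GFP libraries rested on no more than 30 counts each. Mmp13 (ENSMUSG00000050578, chromosome 9, 7272514 to 7283333), the main collagenase of mouse cartilage, was already present at 47.9, 46.9, 44.9 and 43.0 CPM and rose to 223, 218, 207 and 204 CPM, a log2 fold change of 2.22 (SE 0.04, adjusted p = 6.75e-23). Per length, the mean RPKM of Mmp3 went from 0.421 to 493 and that of Mmp13 from 16.6 to 81.4, so Mmp13 was the higher of the pair without and Mmp3 with IL-1β.

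Of 23 matrix metalloproteinases listed, 15 passed the filter of over 1 CPM in at least 3 libraries, and 7 rose, 4 fell and 4 did not pass the test, beside 26.5% higher and 27.9% lower among all genes. The risers besides Mmp3 and Mmp13 were Mmp10 (5.85), Mmp12 (4.81), the gelatinases Mmp9 (2.77) and Mmp2 (0.45, adjusted p = 0.0919 with all 32 libraries), and Mmp17 (1.42). Those that fell, Mmp16, Mmp28, Mmp15 and Mmp11, lay between -0.90 and -0.37, and Mmp11 lost the call without any single one of 5 libraries (Ldha f/f IL-1β set 1, Ldha f/f GFP set 2, Nampt f/f GFP set 1 and either Nampt f/f IL-1β library). Mmp12 overlaps Mmp1b on the opposite strand, and counting was not stated to use strand, so the 2 cannot be told apart fully.

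The aggrecanases moved by smaller steps than Mmp3. Adamts4 (ENSMUSG00000006403, chromosome 1, 171250421 to 171260637) stood at 4.72, 4.19, 3.42 and 4.40 CPM without and 6.54, 7.89, 6.21 and 6.86 CPM with the cytokine, a log2 fold change of 0.71 (SE 0.14, adjusted p = 0.000102). Adamts5 (ENSMUSG00000022894, chromosome 16, 85858170 to 85901125), the dominant aggrecanase of mouse cartilage, rose from 35.1, 32.5, 33.7 and 31.0 to 73.6, 62.7, 60.3 and 54.6 CPM, a log2 fold change of 0.92 (SE 0.06, adjusted p = 2.83e-13). Neither pair of groups overlapped, but with all 32 libraries in one model the adjusted p was 0.106 and 0.0578. Of 14 ADAMTS proteases tested, 6 rose and 5 fell, beside 26.5% and 27.9% of all genes. Adamts7 (1.69), Adamts8 (1.76) and Adamts9 (1.21) were above Adamts5 in fold change, and Adamts12 was at -0.80. The inhibitors split. Timp1 rose from 189.9 ± 16.1 to 387 ± 27.7 CPM (n = 4 each), which on the log2 scale was 1.03, and Timp2 fell by a smaller step (-0.42). Timp3, the tissue inhibitor that binds matrix and blocks aggrecanases, stood at 1794, 1518, 1631 and 1568 CPM without and 715, 651, 550.1 and 535 CPM with the cytokine, a log2 fold change of -1.42 (SE 0.05, adjusted p = 1.75e-17), and it lies within Syn3 on the opposite strand. All 6 tested genes of plasminogen activation rose, from 0.37 for Plat, whose call was lost within Nampt f/f and within each set, to 4.31 for Serpinb2, an inhibitor of the activators, with the receptor Plaur at 1.23.

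Cartilage matrix genes fell nearly as a block. Of 22 core cartilage matrix genes, 21 were tested, of which 17 fell, 3 rose and 1 did not pass, and 16 fell at least 2-fold, with a median log2 fold change of -1.41. Col2a1 (ENSMUSG00000022483, chromosome 15, 97975602 to 98004695), the type II collagen gene, stood at 52355, 53533, 51367 and 53454 CPM in the GFP libraries and 20243, 21188, 21039.7 and 20835 CPM with IL-1β. Its log2 fold change was -1.34 (SE 0.03, adjusted p = 1.23e-21). Acan, the gene of the aggrecan core protein (ENSMUSG00000030607, chromosome 7, 79053483 to 79115099), fell from 6755, 6034, 6062 and 5928 to 1466, 1368, 1490.4 and 1532 CPM, a log2 fold change of -2.08 (SE 0.05, adjusted p = 4.09e-22). In both genes the lowest GFP library lay far above the highest IL-1β library. Among the other members, Matn3 (-2.68), Matn1 (-2.32, adjusted p = 0.0649 with all 32 libraries), Cnmd (-2.11), which encodes the angiogenesis inhibitor chondromodulin, Col27a1 (-2.08), Col11a1 (-1.57), Col9a1 (-1.41), the link protein gene Hapln1 (-1.49) and Comp (-1.20) all fell. The exceptions were Prg4, which encodes the joint lubricant lubricin and rose from 11.3, 14.8, 14.4 and 17.5 to 113, 114, 104 and 120.3 CPM (log2 fold change 2.98), Cilp2 (0.98) and Matn2 (0.54). Because these are bulk samples, fewer chondrocytes and less of these RNAs per chondrocyte cannot be told apart.

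**Figure D2:**
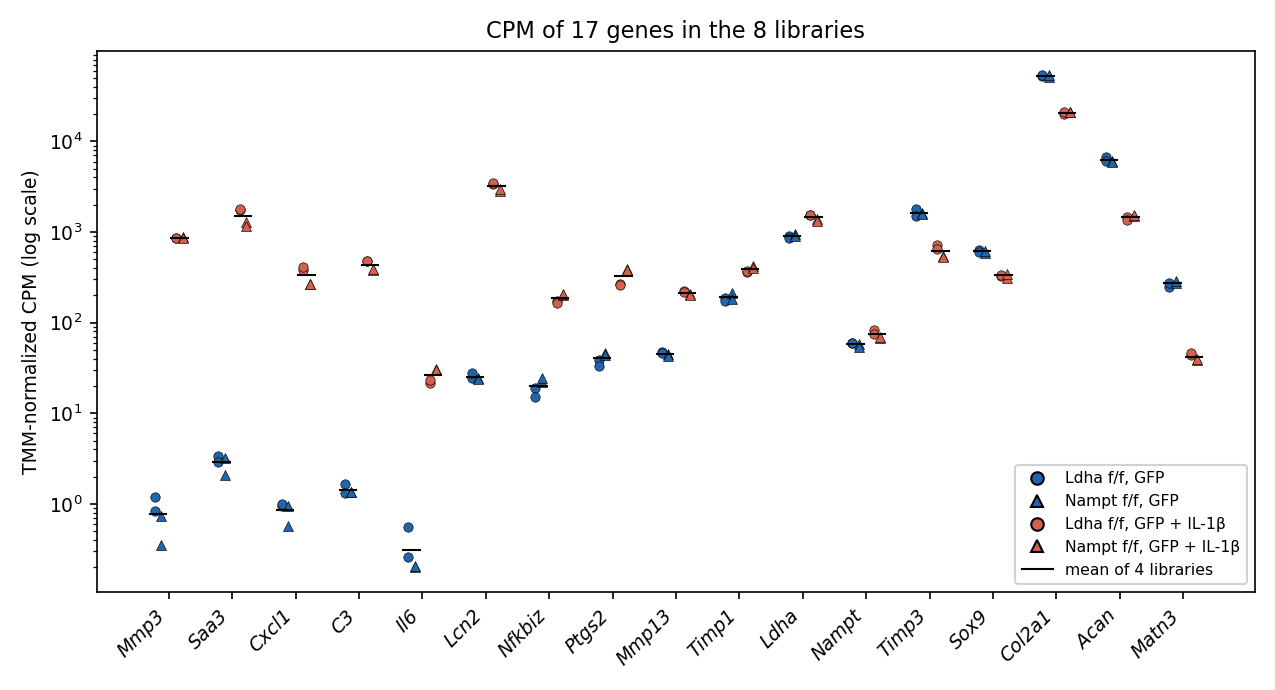
CPM of single genes (y axis, log scale) in each of the 8 libraries, with GFP libraries beside GFP + IL-1β libraries, circles for Ldha f/f and triangles for Nampt f/f, and short bars at the group means. The groups did not overlap for Mmp3 (0.352 to 1.21 against 856 to 885 CPM) or for Acan (5928 to 6755 against 1368 to 1532 CPM).

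Other matrix genes and those of its synthesis were divided. Among 11 small leucine-rich proteoglycans tested, 8 fell, led by Omd (-2.53) and Ogn (-2.23), while Dcn (0.77) and Lum (0.36) rose, both of which lost the call with all 32 libraries (adjusted p = 0.119 and 0.354). Collagens outside the cartilage core moved little, with 12 of 19 lower, 1 higher (Col5a3, 1.18) and a median of -0.20. Of 23 genes of chondroitin chain synthesis and sulfation, 12 fell and 5 rose. The sulfate donor synthase Papss2 went from 527 ± 10.8 to 159 ± 4.70 CPM (n = 4 each), which on the log2 scale was -1.73, and the sulfate transporter Slc26a2 had one of -1.66. Hyaluronan genes went the other way, with 6 of 12 higher, among them the receptor Cd44 (1.24), the proteoglycan Vcan (1.01) and Tnfaip6 (2.04), a protein that cross-links hyaluronan, and only Hyal1 (-0.81) lower.

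Most of the chondrocyte transcription factors that changed were lower. Sox9 (ENSMUSG00000000567, chromosome 11, 112782224 to 112787760), the master regulator, stood at 627, 604, 588 and 624 CPM without and 329.6, 339, 313 and 348 CPM with the cytokine, a log2 fold change of -0.88 (SE 0.04, adjusted p = 2.83e-15). Its relative Sox8 fell further, from 28.5 ± 1.60 to 7.69 ± 0.846 CPM (n = 4 each; log2 fold change -1.88), and its partner Sox6 by less (-0.85). In the list of 17 chondrocyte transcription factors 9 fell and 4 rose, Runx1 with 1.02 the largest rise. Of 14 genes of growth plate signalling and hypertrophy, 8 fell and 3 rose. Col10a1, the collagen of hypertrophic chondrocytes, had a log2 fold change of -2.12, Fgfr3, a brake on chondrocyte growth, -2.11 and Panx3 -2.64, whereas Spp1 (1.53) and Vegfa (0.71) rose. Col10a1 lies within Nt5dc1 on the opposite strand.

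Growth factor genes changed in composition. Among 22 BMP and TGF-β ligands and antagonists tested, 12 fell and 8 rose, beside 27.9% and 26.5% of all genes. The antagonists were on both sides. Grem1, an extracellular BMP antagonist, rose from 36.5, 35.7, 27.3 and 30.3 to 141, 145, 147 and 149 CPM (log2 fold change 2.17), as did Fst (1.17), while Chrdl1 (-2.25), Nog (-1.86) and Chrd (-1.32) fell. Igf2 (ENSMUSG00000048583, chromosome 7, 142650766 to 142666816), the fetal growth factor, fell from 15808 ± 1048 to 8090.4 ± 171 CPM (n = 4 each; log2 fold change -0.97), and the imprinted noncoding RNA H19 at its locus from 16002 ± 580.4 to 3927 ± 76.8 CPM (-2.03). Both overlap genes on the opposite strand. Of 12 IGF genes tested 6 fell and 3 rose, beside the same shares of all genes. Igfbp5 had the largest fall (-2.04), and Igfbp7 was among those that rose (0.87). Of the secreted Wnt antagonists 4 of 8 fell, Sfrp5 (-3.43) and Frzb (-1.79, adjusted p = 0.0741 with all 32 libraries) most, and none rose by edgeR's test.

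Genes of secreted defence proteins rose together. The 14 tested members of the acute-phase and innate defence list, of 21 in it, all rose at least 2-fold, with a median log2 fold change of 6.99, or 6.88 with the members at 0 counts in the GFP group placed at their lower bound. Their summed level went from 315 to 343 CPM in the GFP libraries to between 7394 and 10062 CPM with IL-1β. Lcn2 (ENSMUSG00000026822, chromosome 2, 32384633 to 32387797), the iron-siderophore binder lipocalin-2, stood at 24.7, 27.8, 24.5 and 23.8 CPM without and 3425, 3472, 2852 and 2979.9 CPM with the cytokine, a log2 fold change of 6.98 (SE 0.06, adjusted p = 5.35e-31). Saa3 (ENSMUSG00000040026, chromosome 7, 46711998 to 46715676), a serum amyloid A gene, rose from 3.35, 2.90, 3.24 and 2.09 to 1731, 1798, 1282 and 1177 CPM, a log2 fold change of 8.97 (SE 0.08, adjusted p = 4.71e-30). Chil1, which encodes the chitinase-like protein also known as YKL-40, had the smallest adjusted p of all genes and stood at 6.41, 6.28, 3.74 and 3.46 CPM and 1644, 1693, 1028 and 996 CPM (log2 fold change 8.07, SE 0.06, adjusted p = 9.91e-32). Both treated Ldha f/f libraries were above both treated Nampt f/f libraries for Lcn2, Saa3 and Chil1. None of these responses passed edgeR's test of a difference between the lines (adjusted p = 0.596 for Lcn2 and 0.366 for Saa3), and Chil1 was also higher in the Ldha f/f GFP libraries. Haptoglobin (Hp, 7.90), the protease inhibitor Slpi (7.02), the lipopolysaccharide binder Lbp (6.78) and the metal reductase Steap4 (7.00) followed. Saa1 and Saa4 had 0 counts in all 4 GFP libraries and 209 and 330 counts over the 4 IL-1β libraries, at least 86.8-fold and 137-fold higher when 3 counts over the GFP group are taken as the floor. Saa1 and Saa4 passed the filter only through the IL-1β libraries, so they could only come out higher. Members under the filter were not tested, so the rise of all tested members is partly set by the filter. Reads of the similar Saa and Serpina3 genes may be shared among family members.

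Among complement genes C3 rose most. C3 (ENSMUSG00000024164, chromosome 17, 57203970 to 57228136), the central complement component, stood at 1.66, 1.33, 1.36 and 1.36 CPM without and 479, 477, 383 and 392 CPM with the cytokine, a log2 fold change of 8.23 (SE 0.07, adjusted p = 6.9e-31). Of the 15 tested members 8 rose and 1 fell, with C1s1 at 3.42, C1ra at 2.20, Serping1 at 2.09 and Cd59a, a protector from lysis, at -1.28, a call lost without the set 1 Ldha f/f IL-1β library.

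Chemokines that attract neutrophils and monocytes rose from low levels. Cxcl1 (ENSMUSG00000029380, chromosome 5, 90891241 to 90893115), a neutrophil attractant, stood at 0.944, 1.01, 0.578 and 0.942 CPM in the GFP libraries and 381, 413, 268 and 267 CPM with IL-1β. Its log2 fold change was 8.62 (SE 0.08, adjusted p = 3.93e-30). The treated Ldha f/f libraries were above the treated Nampt f/f ones, but the response did not pass edgeR's test of a difference between the lines (adjusted p = 0.960). Of 12 tested CXC and CX3C chemokines 10 rose, with Cxcl2 (8.07), Cxcl3 (7.35) and Cxcl5 (6.80) next, and only Cxcl12 (-0.31), a retention signal for blood stem cells, was called lower, a call lost with all 32 libraries (adjusted p = 0.637). Ccl2 (ENSMUSG00000035385, chromosome 11, 82035571 to 82037453), the monocyte attractant, rose from 3.80, 4.91, 4.92 and 4.24 to 251, 352, 276 and 364 CPM, a log2 fold change of 6.07 (SE 0.07, adjusted p = 1.42e-27). Of 8 tested CC chemokines 6 rose, Ccl7 (5.47), Ccl20 (5.18) and Ccl5 (2.97) among them, and 10 more were under the filter. The clustered Cxcl genes are similar in sequence, and their reads may be shared.

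Cytokines of several families rose. Il6 (ENSMUSG00000025746, chromosome 5, 30013161 to 30019968) stood at 0.257, 0.564, 0.201 and 0.209 CPM without and 21.8, 23.6, 31.2 and 30.5 CPM with the cytokine, a log2 fold change of 6.46 (SE 0.18, adjusted p = 2.72e-20). Lif, of the same family, had a log2 fold change of 3.86. Per length its mean RPKM was 1.49 without and 22.9 with IL-1β, above the 0.275 of Il6 without and below its 25.2 with the cytokine. Csf3 (ENSMUSG00000038067, chromosome 11, 98701263 to 98703629), the granulocyte growth factor, stood at 0.0286, 0.0403, 0.126 and 0.0523 CPM, or at most 5 counts per library, and at 3.07, 3.76, 3.79 and 4.53 CPM, a log2 fold change of 5.70 (SE 0.37, adjusted p = 1.28e-12). In the IL-6 family list 7 of 12 rose, including the shared receptor chain Il6st (1.35), and 2 fell, Il11ra1 (-0.54) among them. Of the TNF superfamily 9 of 12 rose and 0 fell, and Tnfsf11, which encodes the osteoclast factor RANKL, had a log2 fold change of 2.53 against -0.07 for its decoy receptor Tnfrsf11b, which did not pass the test. Tnf itself, Il1a and Il1b were under the filter in these libraries.

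The members of the IL-1 pathway that changed were higher. Of 15 tested 10 rose, 0 fell and 5 did not pass, the kinase Irak4 and the adaptor Traf6 among these 5. Among those that rose were the receptor Il1r1 with 1.16, its partner Il1rap with 1.44 and the receptor of IL-33, Il1rl1, with 1.85. The largest member change was in the inhibitory kinase Irak3, which stood at 6.18, 5.11, 5.95 and 5.23 CPM without and 42.7, 44.6, 38.6 and 33.7 CPM with IL-1β (log2 fold change 2.82). Of 17 NF-κB subunits and IκB proteins 13 rose and only Chuk (-0.33) fell, with an adjusted p of 0.063 when all 32 libraries were used. Nfkbiz (ENSMUSG00000035356, chromosome 16, 55811375 to 55838899), which encodes the nuclear IκB protein IκB-ζ, stood at 18.8, 15.2, 21.9 and 24.7 CPM and 174, 164, 204 and 208 CPM, a log2 fold change of 3.23 (SE 0.06, adjusted p = 2.11e-23). Nfkbia (ENSMUSG00000021025, chromosome 12, 55489411 to 55492647), the inhibitor IκBα, rose from 11.7, 11.9, 11.8 and 14.3 to 63.8, 63.7, 62.0 and 61.6 CPM, a log2 fold change of 2.35 (SE 0.07, adjusted p = 8.16e-20). Bcl3, a further nuclear IκB protein, had one of 3.63 and overlaps Gm16175 on the opposite strand. The subunits Relb (1.21), Nfkb2 (0.91), Nfkb1 (0.61) and Rela (0.46) rose by less.

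Feedback genes and inducible transcription factors were mostly higher. Zc3h12a, a ribonuclease that degrades cytokine transcripts, rose from 4.40, 4.99, 3.82 and 3.72 to 70.7, 66.3, 67.6 and 67.1 CPM (log2 fold change 4.01), and the ubiquitin editor Tnfaip3 had one of 2.16. In that list of 25 tested genes 18 rose and 3 fell. Of 13 AP-1 factors 11 rose, Fosl1 (1.93), Junb (1.86) and Maff (1.81) most, and Maf fell (-0.99). Of 20 C/EBP, ETS and other inducible regulators 16 rose. Cebpd went from 31.5 ± 1.94 to 251 ± 16.9 CPM (n = 4 each; log2 fold change 3.00), and Epas1, which encodes HIF-2α, had one of 2.26 against 0.39 for Hif1a. Interferon-stimulated genes were mixed, with 12 of 28 higher, 3 lower and a median of 0.37. Gbp2 (4.33) had the largest rise and Ifit2 (-1.10) the largest fall. MHC class I genes, which show peptides to T cells, rose in 15 of 19 cases with a median of 1.05, though H2 family reads may be shared.

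**Figure D3:**
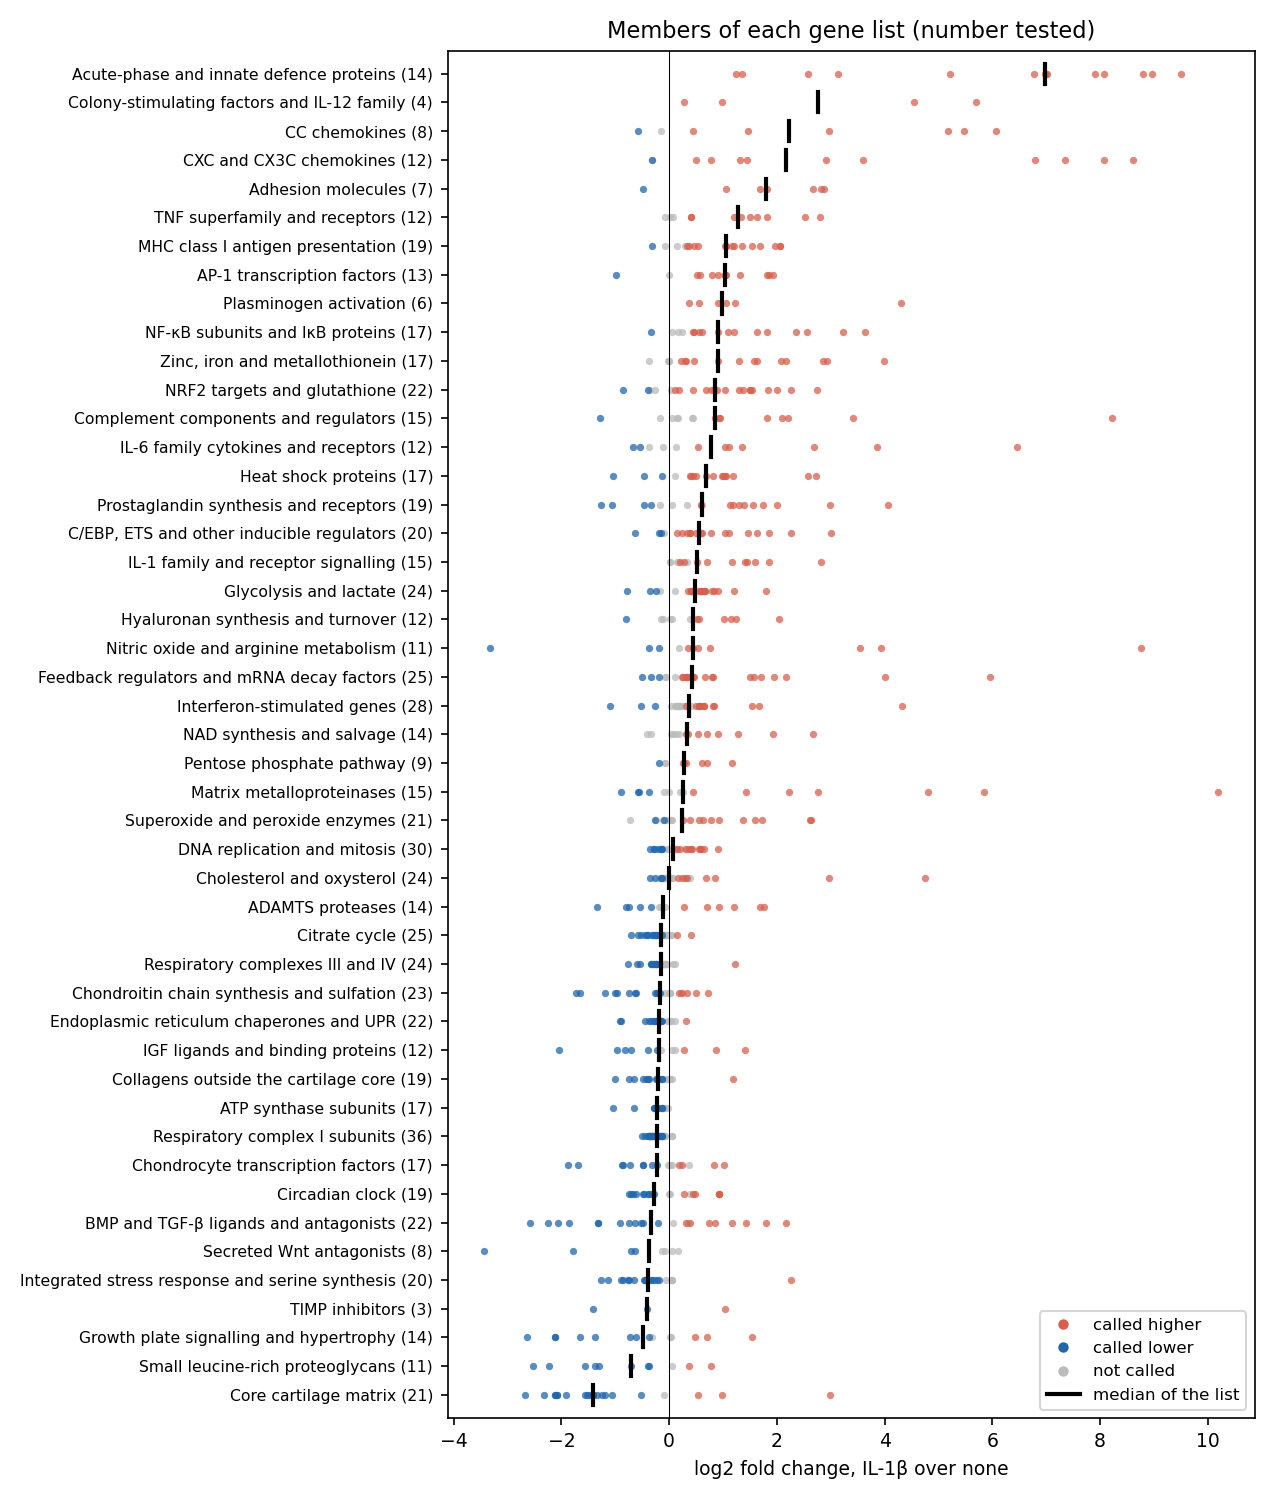
Members of each gene list (rows) by their log2 fold change with IL-1β (x axis), 1 point per tested gene coloured by call, with the list median as a bar and the number tested beside its name. Acute-phase proteins (median 6.99) and core cartilage matrix (median -1.41) lay at the opposite ends.

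The 250 bases before the transcript start are shown for 5 of the genes that rose most among those over 10 CPM with IL-1β, with Nos2, also among them, not shown. Sequences are from RefSeq, build GRCm38.p6, 5′ to 3′ on the strand of the gene. Capitals mark matches, on either strand, to TGANTCA (AP-1), TTGCNNAA (C/EBP) or the κB consensus.
Mmp3 chr9:7445572-7445821, plus strand: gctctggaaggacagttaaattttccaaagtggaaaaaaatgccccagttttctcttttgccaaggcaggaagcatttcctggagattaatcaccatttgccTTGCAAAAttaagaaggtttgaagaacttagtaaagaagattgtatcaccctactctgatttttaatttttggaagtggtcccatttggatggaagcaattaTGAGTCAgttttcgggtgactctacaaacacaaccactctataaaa
Vnn3 chr10:23851212-23851461, plus strand: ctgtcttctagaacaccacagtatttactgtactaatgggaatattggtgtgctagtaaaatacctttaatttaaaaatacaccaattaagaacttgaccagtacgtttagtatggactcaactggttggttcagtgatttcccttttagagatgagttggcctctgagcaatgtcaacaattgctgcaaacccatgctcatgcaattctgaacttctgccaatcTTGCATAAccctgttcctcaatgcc
Saa3 chr7:46715677-46715926, minus strand: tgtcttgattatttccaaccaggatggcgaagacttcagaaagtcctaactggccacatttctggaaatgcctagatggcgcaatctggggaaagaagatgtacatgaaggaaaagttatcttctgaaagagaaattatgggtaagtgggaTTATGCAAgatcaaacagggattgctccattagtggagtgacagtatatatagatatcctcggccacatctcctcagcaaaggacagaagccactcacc
Cxcl1 chr5:90890995-90891244, plus strand: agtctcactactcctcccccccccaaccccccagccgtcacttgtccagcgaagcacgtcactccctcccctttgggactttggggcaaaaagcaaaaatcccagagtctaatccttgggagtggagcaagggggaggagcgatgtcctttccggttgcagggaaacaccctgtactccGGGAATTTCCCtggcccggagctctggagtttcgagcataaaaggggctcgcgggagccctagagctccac
C3 chr17:57228137-57228386, minus strand: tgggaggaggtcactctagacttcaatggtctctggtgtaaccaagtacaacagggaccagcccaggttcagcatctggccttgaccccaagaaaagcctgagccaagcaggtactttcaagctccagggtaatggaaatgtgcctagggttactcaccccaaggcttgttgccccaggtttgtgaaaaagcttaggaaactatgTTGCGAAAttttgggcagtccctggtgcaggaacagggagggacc

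Matches by letters are a description and not a binding site. Mmp3 held an AP-1 match beginning 46 bases before the start and a C/EBP match 148 bases before it. Cxcl1 held overlapping κB matches at 71 and 70 bases, 1 on each strand, and Vnn3, Saa3 and C3 each held a C/EBP match, at 25, 99 and 45 bases. Among all 32851 promoter windows of this length in the table, 3.90% held a κB match, 6.75% an AP-1 match and 9.56% a C/EBP match. Over the first window of each tested gene with an entry the shares were 4.48%, 4.26% and 7.11%, and over the 4532 of these that were not called they were 4.26%, 3.91% and 6.62%. For the 633 genes higher by at least 2-fold with an entry, the shares were 8.06%, 10.7% and 12.0%, and for the 358 lower by at least 2-fold they were 6.42%, 6.70% and 7.26%. Among the 20 genes higher by at least 32-fold with an entry, 40.0% held a κB match, 20.0% an AP-1 match and 60.0% a C/EBP match. Entries were found for 10499 of the 14568 tested genes.

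The 2 nitric oxide synthase genes tested moved in opposite directions. Nos2 (ENSMUSG00000020826, chromosome 11, 78920787 to 78960254), the inducible enzyme, stood at 0.0572, 0.0805, 0.251 and 0 CPM, at most 10 counts per library, and at 58.8, 55.4, 46.8 and 50.3 CPM with the cytokine, a log2 fold change of 8.76 (SE 0.18, adjusted p = 6.13e-23). Nos1, the neuronal enzyme, fell from 19.4, 14.2, 17.2 and 14.7 to 1.79, 2.02, 1.37 and 1.38 CPM, a log2 fold change of -3.33, and it overlaps Gm26995 on the opposite strand. Gch1, which makes the synthase cofactor tetrahydrobiopterin, had a log2 fold change of 3.54 and Arg2, which competes for arginine, 3.93. Of 19 prostaglandin genes 10 rose and 4 fell. Ptgs2 (ENSMUSG00000032487, chromosome 1, 150100031 to 150108227), cyclooxygenase-2, rose from 38.4, 33.3, 46.7 and 44.1 to 271, 262, 389 and 380.1 CPM, a log2 fold change of 2.99 (SE 0.05, adjusted p = 2.7e-24), and was higher in the Nampt f/f than in the Ldha f/f libraries of either treatment. The terminal synthase Ptges had a log2 fold change of 4.06 and the receptor Ptger4 2.01. Of 7 adhesion molecules 6 rose, with Icam1 at 2.88, Vcam1 at 1.81 and Mcam, the one that fell, at -0.49.

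Metabolic genes moved by smaller steps. Of 24 glycolysis and lactate genes, 19 rose, 3 fell and 2 did not pass, with a median of 0.49. Hk2 (ENSMUSG00000000628, chromosome 6, 82725025 to 82774454), the inducible hexokinase, stood at 106, 119, 116 and 118 CPM without and 157, 189, 159 and 185 CPM with the cytokine, a log2 fold change of 0.59 (SE 0.05, adjusted p = 6.73e-11). Slc2a1 (ENSMUSG00000028645, chromosome 4, 119108711 to 119137330), the glucose transporter GLUT1, rose from 378, 374, 369.7 and 379 to 514, 536, 466 and 477 CPM, a log2 fold change of 0.41 (SE 0.04, adjusted p = 7.9e-09), with an adjusted p of 0.0898 when all 32 libraries were in one model. The largest rises were in the lactate exporter Slc16a3 (1.80) and its relative Slc16a1 (1.20), and Pkm, the pyruvate kinase, had 0.90. Ldhb, the other lactate dehydrogenase subunit, fell from 38.9 ± 2.20 to 22.5 ± 2.13 CPM (n = 4 each; log2 fold change -0.79). In the pentose phosphate pathway 6 of 9 rose, Pgd (1.16) and Taldo1 (0.71) most.

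Most of the genes of mitochondrial oxidation that changed were lower. Of 25 citrate cycle genes 13 fell and 2 rose, of 36 nuclear complex I subunits 27 fell and 0 rose, of 24 complex III and IV subunits 12 fell and 1 rose, and of 17 ATP synthase subunits 12 fell and 0 rose. Sdhb (ENSMUSG00000009863, chromosome 4, 140961203 to 140979193), shared by the citrate cycle and the respiratory chain, stood at 93.5, 96.9, 96.6 and 97.0 CPM without and 59.4, 61.9, 56.3 and 57.8 CPM with the cytokine, a log2 fold change of -0.71 (SE 0.05, adjusted p = 4.01e-12). It was the largest fall of the citrate cycle, with Idh2 (-0.57) and Idh1 (-0.52) next. The complex I median was small, -0.23 with a range from -0.50 to 0.06, and only 9 of its 36 members had groups that did not overlap, against 22 of the 24 glycolysis genes and 41.3% of all genes. The 1 riser among complexes III and IV was Ndufa4l2 (1.22, adjusted p = 0.111 with all 32 libraries), which replaces a complex IV subunit under low oxygen. Genes of NAD synthesis and salvage included 8 of 14 higher and 0 lower, Nmnat3 (1.92) and Nampt itself among them.

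Most of the genes of oxidant defence and metal handling that changed were higher. Sod2, the mitochondrial superoxide dismutase, stood at 57.1, 63.0, 60.2 and 61.1 CPM and 389, 401, 344 and 347 CPM (log2 fold change 2.62), and the secreted Sod3 had 2.63. Of 21 superoxide and peroxide enzymes 11 rose, Prdx6 (1.72), Txnrd1 (1.59) and Prdx1 (1.37) among them. Of 22 NRF2 targets and glutathione genes 17 rose and 2 fell, with the cystine importer Slc7a11 at 2.27, sulfiredoxin Srxn1 at 2.00, the glutathione synthesis gene Gclc at 1.53 and Nfe2l2, which encodes NRF2, at 0.83. Fth1, the ferritin heavy chain, stood at 1024, 1600.4, 1041 and 1565 CPM without and 8367, 12249, 7876 and 11121 CPM with IL-1β (log2 fold change 2.93). In both lines and treatments its set 2 library was above its set 1 library. Of 17 zinc and iron genes 13 rose and 0 fell, including the zinc importer Slc39a8 (3.99), Mt2 (2.85) and Mt1 (2.07). The pantetheinase genes Vnn1 (5.06) and Vnn3 (9.69) rose as well, Vnn3 from at most 6 counts per GFP library to 65.5, 61.5, 54.2 and 54.6 CPM.

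Several genes outside these lists were among those with the smallest adjusted p or the largest fall. C1qtnf3, an adipokine made by chondrocytes, fell from a mean of 166 ± 9.20 to one of 24.8 ± 1.90 CPM (log2 fold change -2.75). The natriuretic peptide clearance receptor Npr3 (-2.84), Lrrc17 (-3.05), G0s2 (-2.38), an inhibitor of triglyceride breakdown, Thbs1 (-1.85) and Smoc2 (-2.44) followed, of which Lrrc17 and Thbs1 overlap genes on the opposite strand. The largest fall among genes with a GFP mean of at least 10 CPM was in Slc16a14, a member of the monocarboxylate transporter family, from 13.4, 11.0, 13.3 and 13.1 to 0.683, 0.939, 0.404 and 0.818 CPM (log2 fold change -4.19). Smpd3, a neutral sphingomyelinase needed for cartilage and bone mineralization, had -3.36 and Fgf21, a metabolic hormone, -3.11.

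Leukocyte markers were low in all libraries. The 5 tested of 8 macrophage markers were all higher with IL-1β. Their list summed to 15.0 to 20.4 CPM without and 35.4 to 45.2 CPM with it. The 4 tested of 7 neutrophil markers were higher too. That list summed to 5.30 to 15.0 and 9.52 to 26.8 CPM. In each list 3 markers were under the filter and not tested. The rise of all tested members may therefore be partly set by the filter. Of the untested macrophage markers, Adgre1 and C1qa had similar means with and without IL-1β, and Fcgr1 a lower one with it. Of the untested neutrophil markers, Ly6g had similar means, and Elane and Mpo higher ones with IL-1β. In either treatment the neutrophil sum was higher in the Ldha f/f than in the Nampt f/f libraries. The general leukocyte markers Ptprc, Laptm5 and Coro1a summed to 2.86 to 6.41 CPM without and 3.71 to 7.42 CPM with IL-1β, and 0 of the 2 tested were called by edgeR, with 0 at an unadjusted p under 0.05. No marker of any list was at 0 counts in all 8 libraries. Their part in the rise of inflammatory genes was not tested. Of the 7 tested fibroblast and perichondrium markers 2 rose and 4 fell, their list summing to 3478 to 4342 CPM without and 2799 to 3343 CPM with IL-1β, and all 5 tested osteoblast markers fell. Of the endothelial markers 1 of 3 rose and none fell, of the adipocyte markers 2 of 3 rose and 1 fell, of the mesothelial and epithelial markers 2 of 3 fell and none rose, of the erythroid markers 1 of 2 rose, and the 1 lymphocyte marker tested, Cd3e, did not pass. Skeletal muscle markers summed to 94.6 to 132 CPM without and 56.7 to 116 CPM with IL-1β, and they disagreed, since Tnnt3 fell (-2.43) and Ttn rose (0.99).

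Most genes called in one library set or line moved the same way in the other. Taken apart, 6538 genes were called in set 1 and 5537 in set 2, and 4778 were called in the same direction in both, 73.1% of the set 1 and 86.3% of the set 2 calls, against 8 in opposite directions. Of the 1518 genes called with at least 2-fold in set 1, 1500 had the same sign in set 2. Between the lines, 6729 genes were called in Ldha f/f and 7036 in Nampt f/f, 5287 in the same direction in both and 26 in opposite ones. Across the 14568 genes the log2 fold changes correlated with r = 0.916 between sets and r = 0.899 between lines, in which genes are not independent replicates.

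**Figure D4:**
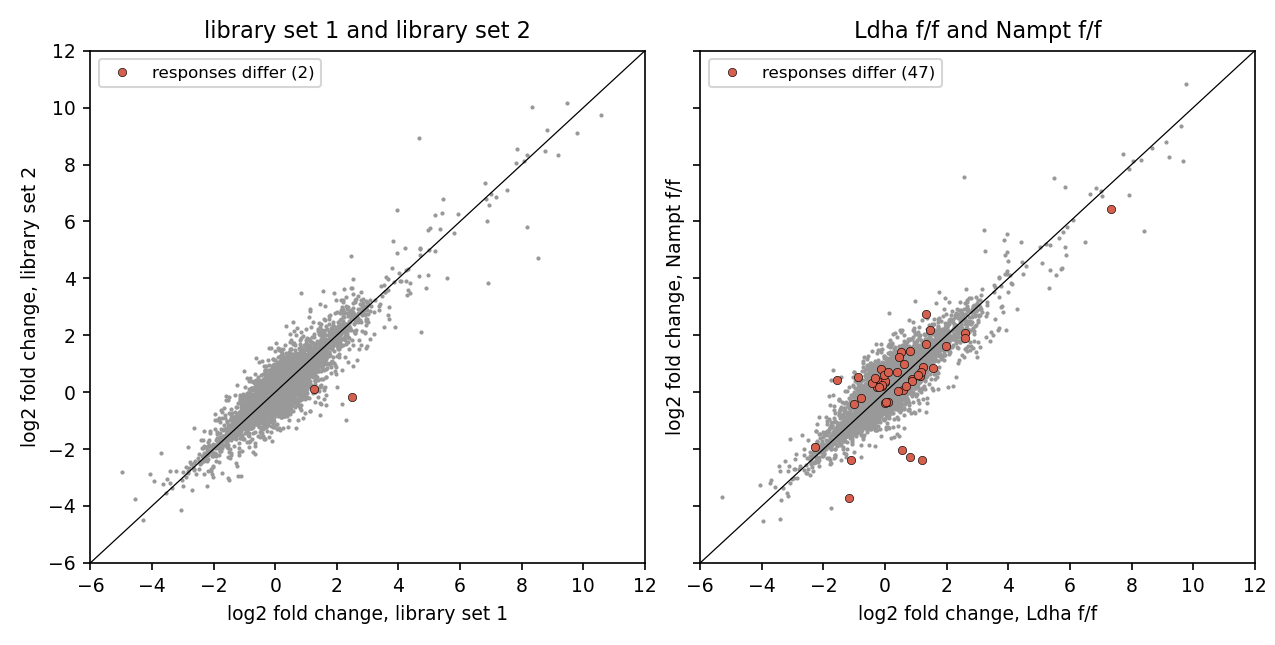
Log2 fold change with IL-1β in set 2 against set 1 (left) and in Nampt f/f against Ldha f/f (right), 1 point per tested gene, with genes whose response differed at an adjusted p of 0.05 marked. Points followed the diagonal, with 2 marked genes between sets and 47 between lines.

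The difference of the response between the lines was itself tested. It passed for 47 genes (0.323% of 14568), its sign positive (a higher log2 fold change in Nampt f/f) for 25 and negative for 22, and for 217 with the GFP and IL-1β libraries of the same line and set paired as a replicate block. The count rested on single libraries, being 12 and 11 without the set 1 and set 2 Ldha f/f IL-1β library, 146 without the set 2 Ldha f/f GFP library, 85 and 29 without the set 1 and set 2 Nampt f/f IL-1β library, and 25 and 21 without the set 1 and set 2 Nampt f/f GFP library. On simulated counts this test recovered 89 of 200 differences of 1.5-fold and 148 of 200 of 2-fold. In 17 of the 47 the response had the same sign and was larger in Ldha f/f, in 11 larger in Nampt f/f, and in 19 the signs differed. Kcnq1ot1, an imprinted noncoding RNA, went from 195, 168, 153 and 133 to 172, 158, 258 and 250.1 CPM, which was -0.14 in Ldha f/f and 0.83 in Nampt f/f on the log2 scale (difference 0.97, adjusted p = 3.29e-09). The aryl hydrocarbon receptor gene Ahr rose more in Nampt f/f (2.18 against 1.47), as did the transporter gene Slc6a17 (2.73 against 1.31) and Ttn (1.43 against 0.52). A further 4 genes, named after their values were seen, rose less in Nampt f/f, namely Slc16a3 (1.61 against 1.98), Ndufa4l2 (0.86 against 1.57), the mitophagy receptor gene Bnip3 (0.47 against 0.88) and Fam162a (0.59 against 1.08). These 4 differences lost the call without either Ldha f/f IL-1β library, and Ahr without that of set 1. Slc16a3, Ndufa4l2 and Bnip3 also lost it without either Nampt f/f GFP library or the set 2 Nampt f/f IL-1β library, Slc16a3 without the set 1 Ldha f/f GFP library, and Ndufa4l2 without the set 2 Ldha f/f GFP or set 1 Nampt f/f IL-1β library. The genes Mir6236, Gm42418 and Lars2 also passed but ranged widely between libraries of a group. Gm42418 went from 115 to 7809 CPM among the GFP libraries and from 167 to 8306 CPM among those with IL-1β. Between the sets only Gm25911 (difference -2.75) and Pnck (-1.12) passed, 2 genes or 0.0137%, with 7 under the replicate block and 0 with DESeq2, which gave 154 genes at an unadjusted p under 0.05. That count was 16 and 11 without the set 1 and set 2 Nampt f/f GFP library, 8 and 7 without the set 2 and set 1 Ldha f/f IL-1β library, and 5 and 1 without the set 1 and set 2 Nampt f/f IL-1β library. Pnck lost the call without the set 1 Ldha f/f IL-1β, the set 2 Ldha f/f GFP or the set 2 Nampt f/f IL-1β library.

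The same response in Nfkbiz f/f GFP chondrocytes, 4 libraries all of set 2, was compared with that of the 2 lines. The difference passed for 1089 of 14880 genes tested over 12 libraries (7.32%). In 787 the log2 fold change was above and in 302 below that of the other lines. Mmp13 had a log2 fold change of 3.55 in Nfkbiz f/f against 2.22 in the 2 lines (difference 1.33, adjusted p = 3.4e-10), Adamts5 2.52 against 0.92 and Cx3cl1 3.49 against 1.44. Ccn2, a connective tissue growth factor gene, fell in the 2 lines (-1.22) and had -0.03 in Nfkbiz f/f. Within acute-phase proteins 9 of 14 had a higher log2 fold change in Nfkbiz f/f and Chil1 a lower one (difference -0.91), and that of 10 of 17 heat shock proteins was lower there. With set 2 alone the count was 433, and without the first or second Nfkbiz f/f IL-1β library it was 661 or 603, and 723 without the first Nfkbiz f/f GFP library. All Nfkbiz f/f libraries are of set 2, so line and set cannot be told apart in the pooled value.

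Some of the genes that rose with IL-1β were low or near absent in the 8 wild-type libraries, which had received no virus. By their labels these were untreated or given IL-1β, the LDHA inhibitor FX11 or both, 2 libraries of each. The wild-type ranges therefore pool treated and untreated cells, and some set 2 labels run against their values. The following genes were picked after their values were seen, and their CPM are relative to library totals. Tmem130 stood at no more than 0.512 CPM in wild-type libraries, at 215 to 251 in Ldha f/f and 499 to 563 in Nampt f/f GFP libraries, and at 1334 to 1617 and 2052 to 2083 with IL-1β (log2 fold change 2.24, adjusted p = 4.53e-17). Bcas1 (2.31), Zan (2.35), Nat8f5 (2.31), Adgrb3 (2.19) and Insm2 (2.28) had the same pattern. By a rule of under 1 CPM in every wild-type and at least 2 CPM in every Ldha f/f and Nampt f/f GFP library 11 genes qualified. Of these 8 rose with IL-1β, 1 fell and 2 did not pass. In 10 of the 11 both Nampt f/f GFP libraries were above both Ldha f/f GFP libraries, for Nexmif narrowly (3.42 to 4.08 against 2.44 to 3.38 CPM). The share of all genes with this order was not counted, so it cannot be read as a trait of these genes. Heat shock genes rose in the same libraries. Hspa1a stood at 0.814 to 3.24 CPM in wild-type libraries, 44.5 to 126 CPM in the GFP libraries and 297 to 724 CPM with IL-1β, and Htra2, a mitochondrial protease, at 18.6 to 45.4, 446 to 1271 and 2887 to 6012 CPM. Of 17 heat shock genes 13 rose and 3 fell with IL-1β, Hspa1b (2.73) and Hspa1a (2.58) most and Cryab (-1.05) lowest, and reads of the near-identical Hspa1a and Hspa1b may be shared. Whether virus load or eGFP has a part in these rises was not tested.

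**Figure D5:**
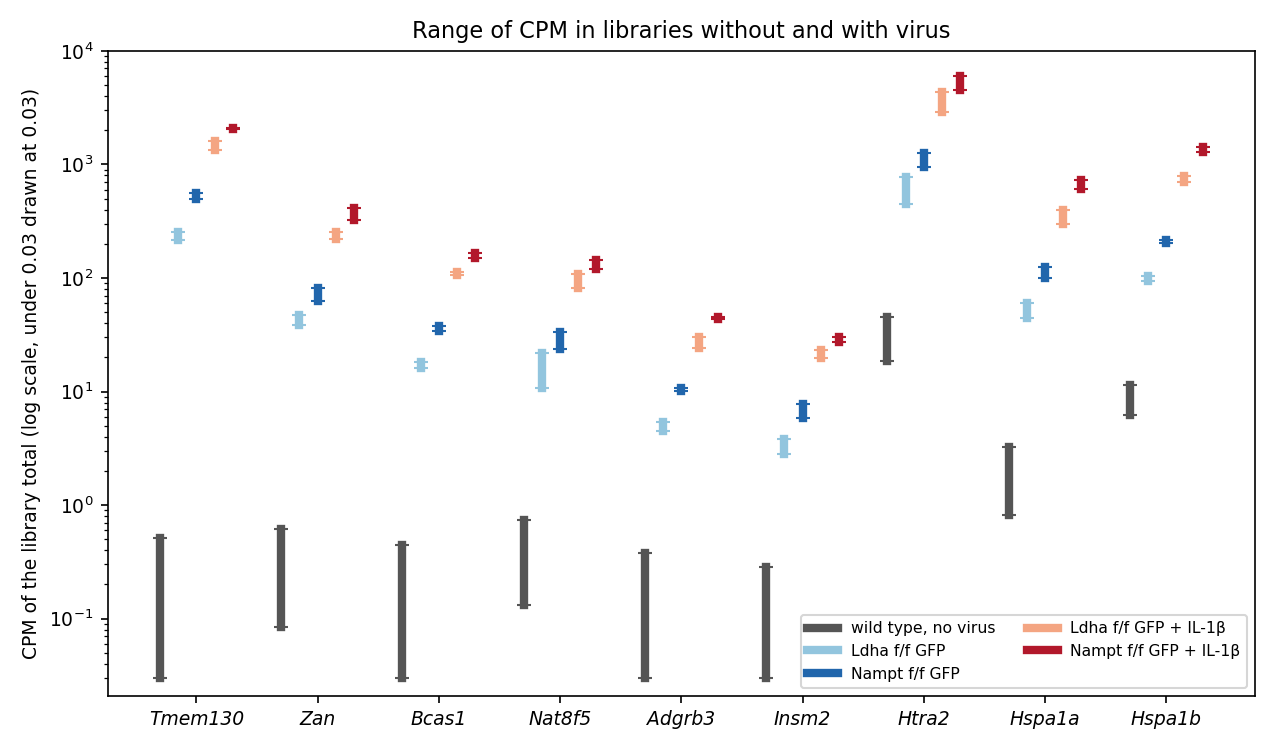
CPM of library totals (y axis, log scale, values under 0.03 drawn at 0.03) for genes absent or low in the 8 wild-type libraries, shown as the range from lowest to highest library in wild-type libraries without virus and in GFP and GFP + IL-1β libraries of Ldha f/f and Nampt f/f. The wild-type range pools libraries labelled untreated, IL-1β, FX11 and IL-1β + FX11. Tmem130 stayed at or under 0.512 CPM without virus and reached 2083 CPM with virus and IL-1β.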

How the data were processed

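Ribosomal-RNA-depleted total RNA was sequenced in 32 libraries of chondrocytes. Per the submitters' processing notes, the authors aligned reads to GRCm38 with STAR 2.0.4b and counted them per gene with featureCounts 1.45. The study's methods name Ensembl release 76 and other versions of both tools. The deposited files hold raw counts with the authors' CPM and RPKM, and all tests used the counts. RPKM from the deposited files served only for levels between genes. Counting strand is not given in the sources used here. Genes named here that overlap others on the opposite strand also include Adamts7, Adamts9, Arg2, Bcas1, C1s1, Ccn2, Chrd, Gbp2, Hif1a, Icam1, Il11ra1, Il1rap, Irak3, Kcnq1ot1, Matn2, Maf, Mcam, Ndufa4l2, Nfkb2, Prg4, Ptger4, Runx1, Slc2a1, Smpd3, Ttn and Zan.

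Genes over 1 CPM in at least 3 of the 8 libraries were kept (14568), TMM-normalized and tested with edgeR 4.0.16 (R 4.3.3), quasi-likelihood, with line and library set as covariates and Benjamini-Hochberg adjustment at 0.05. Differences between lines or sets were interaction terms, and Nfkbiz f/f was compared in a 12-library fit. The common dispersion was 0.00464. Alternatives were DESeq2 1.42.0, limma 3.58.1 (voom), other scaling, filters, covariates and samples, and leaving out each library. Same-set libraries of a line deviated together from the mean of their treatment over 10706 genes, with correlations of 0.631, 0.587, 0.576 and 0.47. A shared line or set alone can give such values. After line, set and IL-1β were fitted the correlations were -0.492, -0.475, -0.39 and -0.558. Fitting these terms in this balanced design gives negative values by itself, so they cannot decide whether there was pairing beyond line and set. The pairing by replicate number was used as a block only as an alternative. Pairs of replicates of a group differed beyond sampling noise. On simulated counts for 14568 genes the IL-1β test recovered 161 of 200 genes changed 1.5-fold and 191 of 200 changed 2-fold, with 7 false calls each. The test of a difference between lines recovered 89 and 148 of 200, and that between sets 86 and 152.

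The members and gene lists were chosen with earlier results of these data known. Named genes were 25 set by name, the 10 with the smallest adjusted p and the 10 with the largest change in each direction (mean of at least 10 CPM in the higher group), up to 4 called members of each list with the smallest adjusted p and those against its majority, and up to 8 per difference. Other genes were named after their values were seen. The 2-fold rule and the genes compared with virus-free libraries were also chosen after seeing the data. One named gene is not reported here.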

Additional observations from a re-analysis of the deposited data

Results flagged for a closer look

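Single libraries stood apart from the other 3 of their group in 27 of 682 groups of 4 libraries, where the gap to the nearest library was over 0.829 of the range of the group. Chance alone puts about 1 in 20 groups past that limit. In the GFP group the Ldha f/f set 1 library stood apart for Acan (gap share 0.838), C3 (0.903), Sdhb (0.899), Timp2 (0.89), Col27a1 (0.86), Tgfb1 (0.893) and Idh2 (0.878), and the Ldha f/f set 2 library for Il6 (0.844), Slc16a14 (0.889) and Ndufa4l2 (0.883). The Nampt f/f set 1 GFP library did for Cxcl1 (0.85), Csgalnact2 (0.937), Nadk2 (0.882) and Hmgcs1 (0.834), and the Nampt f/f set 2 GFP library for Nampt (0.851), Nfkbia (0.926), Lum (0.882), Cdc20 (0.989) and Cry1 (0.946). With IL-1β, the Nampt f/f set 1 library stood apart for Fgf21 (0.898) and Bub1b (0.844), the Nampt f/f set 2 library for Nmnat3 (0.852) and Penk (0.924), the Ldha f/f set 2 library for Mir6236 (0.933) and the Ldha f/f set 1 library for Gm25911 (0.975), Nfe2l2 (0.881) and Prdx1 (0.858). The cause was not tested.

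The IL-1β response differed between groups by an interaction test for several named genes. Between the lines, Nampt f/f minus Ldha f/f, the log2 differences were 0.97 for Kcnq1ot1, 1.42 for Slc6a17, -0.69 for Tmem130, 0.55 for Zbtb20, 0.91 for Ttn, -3.18 for Mir6236, 0.46 for Fat4 and 0.71 for Ahr. That of Fat4 lost the call without either Ldha f/f IL-1β library, and that of Mir6236 with DESeq2 and without the set 2 IL-1β library of either line. Between the sets they were -2.75 for Gm25911 and -1.12 for Pnck. Between Nfkbiz f/f and the other lines they were 1.33 for Mmp13, 1.32 for Nrp2, 2.06 for Cx3cl1, 1.60 for Adamts5, 1.20 for Ccn2, 1.29 for Ptx3, 2.86 for Steap4 and 1.24 for Penk.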

How the results depend on the processing

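The IL-1β response was called for 7925 genes and, leaving out 1 library at a time, for 6999 to 7617. With all 32 libraries in one model it was called for 4526 (2331 higher, 2195 lower), and by the 2-fold rule added later for 1459 (937 higher, 522 lower). That model includes the set 2 wild-type libraries labelled FX11 and IL-1β, whose Nfkbiz levels of 157 and 9.39 CPM run against their labels. The difference between lines (47 genes) was 103 with no filter on low counts, 217 with the replicate block and 11 to 146 leaving out 1 library. The difference between sets (2 genes) was 0 with DESeq2, 22 with no filter, 7 with the replicate block, 6 with voom quality weights and 1 to 16 leaving out 1 library. The difference from Nfkbiz f/f (1089 genes) was 433 with set 2 alone and 603 to 1188 leaving out 1 library. Over the 333 named genes and 22 alternatives of the response, 7048 values kept direction and call, 271 over 89 genes lost the call, and 1 changed sign, Kcnq1ot1 with Ldha f/f alone (-0.14). Under the replicate block the only named gene of the response to lose its call was Socs2. Of the named differences, 317 values kept direction and call and 31 over 9 genes lost the call. Of the list counts, 60 over 36 results moved by over 1.5 times. The cause was not tested. Depth limited genes with few counts in GFP libraries, such as Mmp3 and Nos2, whose fold changes are less certain than their direction.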

Other observations

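Of 30 genes of DNA replication and mitosis, 11 were higher with IL-1β, 7 lower and 12 did not pass the test of edgeR, beside 26.5% higher and 27.9% lower among all genes. Those that rose included Tyms (0.90), Pcna (0.57) and Rrm2 (0.60), which serve nucleotide supply and DNA synthesis. Those that fell included the mitotic genes Plk1 (-0.29), Cdc20 (-0.28) and Ccnb2 (-0.35), each of which lost the call with all 32 libraries in one model. The replication gene Mcm2 was also among those that fell, whereas Mcm3 and Mcm4 were among those that rose. Of 20 genes of the integrated stress response and serine synthesis 15 fell, with Pycr1 at -1.27 and Ddit3 at -1.14, while the cystine importer Slc7a11 (2.27) rose. Of 22 chaperones and response genes of the endoplasmic reticulum 15 fell, Edem1 (-0.92) and Herpud1 (-0.90) most.

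Circadian clock genes went both ways, with 10 of 19 lower and 6 higher, beside 27.9% and 26.5% of all genes. Dbp (-0.75), Tef (-0.67) and Nr1d2 (-0.62) fell, whereas Nfil3 (0.93) and Bhlhe40 (0.93), repressors of the clock outputs, rose. The other clock genes that rose were Npas2, Rora, Cry1 and Per1. In the oxysterol list of 24 genes 8 rose and 4 fell, beside the same 26.5% and 27.9% of all genes. Ch25h, which makes 25-hydroxycholesterol, stood at 0.0858, 0.121, 0.176 and 0.262 CPM in the GFP libraries and 3.70, 4.98, 3.27 and 5.66 CPM with IL-1β (log2 fold change 4.75), and Cyp7b1, which metabolizes it, had a log2 fold change of 2.97. Ch25h overlaps Gm26902 on the opposite strand.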
